A study of Mus musculus with 4 samples.

Results

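Ependymal cells are the ciliated epithelial cells that line the brain ventricles, and the cells described here were selected from 4 single-cell RNA-seq libraries of mouse brain for their ependymal transcripts. Cells were kept when they held between 200 and 6000 genes and no more than 10% of their UMIs (unique molecular identifiers, each standing for 1 captured transcript) were mitochondrial. A kept cell was taken as ependymal when it held a UMI of at least 3 of the 4 genes Ccdc153, Tmem212, Foxj1 and Rarres2 and of at most 1 of the 5 choroid plexus genes Clic6, Sostdc1, Prlr, Htr2c and Kl. This gave 681 of 54754 kept cells, or 1.24%. They came from 1 library per group, namely sham surgery and days 1, 3 and 7 after transient middle cerebral artery occlusion (tMCAO), a stroke model in which a filament blocks the artery and is then withdrawn to allow reperfusion. All mice were male C57/BL6 and 8 weeks old by the labels, the sham mice went through the same surgery without the occlusion, and the hemisphere on the operated side was dissociated with papain and cleared of myelin on Percoll. The number of mice in a library was not given in the sources used here, the labels give the sham library no day, and the series' design text places it at day 7. With 1 library per group no difference was tested, and every interval below is an exact 95% interval that covers counting error only.

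Each multiciliated ependymal cell carries a tuft of motile cilia that moves cerebrospinal fluid. A motile cilium is built on an axoneme of microtubule doublets with dynein arms as motors, nexin links between doublets, and radial spokes that reach to a central pair. FOXJ1 and the RFX factors drive the genes of this structure, and intraflagellar transport carries the parts along the cilium. Ependymal cells also control the passage of water, ions and solutes between cerebrospinal fluid and brain tissue, and they express genes shared with astrocytes, their sister lineage.

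Short stretches of promoters are shown first, because the axonemal genes are the largest group of ciliary genes described, and some of their promoters hold a motif of ciliary genes. GTTGCCA, which is part of the X-box bound by RFX factors, was searched on both strands from 250 bases before to 50 bases after the start in the RefSeq promoter set (GRCm38.p6). Of the 74 axonemal genes that reached 100 CPM (a gene's UMIs scaled to the same total in every library) in at least 1 library, 60 had a promoter in that set and 15 of these (25%) held the motif, beside 1358 of 27025 genes in the whole set (5.02%). By promoter, 22.4% of the 67 promoters of these genes and 4.38% of all 32851 promoters held it. Each line gives 29 bases in the direction of transcription, with the motif or its reverse complement in capitals.
Mlf1 (chr3:67373981-67374009, plus strand): tgtttacagagGTTGCCAtagcagccgag
Sntn (chr14:13670799-13670827, plus strand): gtcattattcaGTTGCCAtggaatgaatg
Pifo (chr3:106001493-106001521, minus strand): ttccgttccctTGGCAACgtagtacacag
Hydin (chr8:110266952-110266980, plus strand): tgcggttgctgTGGCAACagatggtaaca
Tekt1 (chr11:72361880-72361908, minus strand): gcgtccgtccgGTTGCCAtagagaccgca
Drc1 (chr5:30281370-30281398, plus strand): ctgctttccctTGGCAACggcttgttcct
A match describes only the letters present in the window. The motif began 105, 66 and 15 bases before the start in Mlf1, Sntn and Tekt1, and 13, 14 and 12 bases before it in Pifo, Hydin and Drc1.

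Selected cells numbered 89 in the sham library, 401 on day 1, 82 on day 3 and 109 on day 7. They made up 0.873% of the kept sham cells (95% interval 0.702 to 1.07%), 2.40% on day 1 (2.17 to 2.64%), 0.726% on day 3 (0.578 to 0.9001%) and 0.659% on day 7 (0.541 to 0.794%). The day 1 share was the highest and its interval lay apart from the other 3, whereas the sham interval overlapped those of days 3 and 7. A share depends on how many ventricle-lining cells and how many of all other cells came through dissociation, and these cannot be told apart. The selected cells held 998213, 4044640, 697210 and 931717 UMIs in all, in the same order, with a median of 10808, 8926, 6487 and 7742 UMIs per cell.

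**Figure D1:**
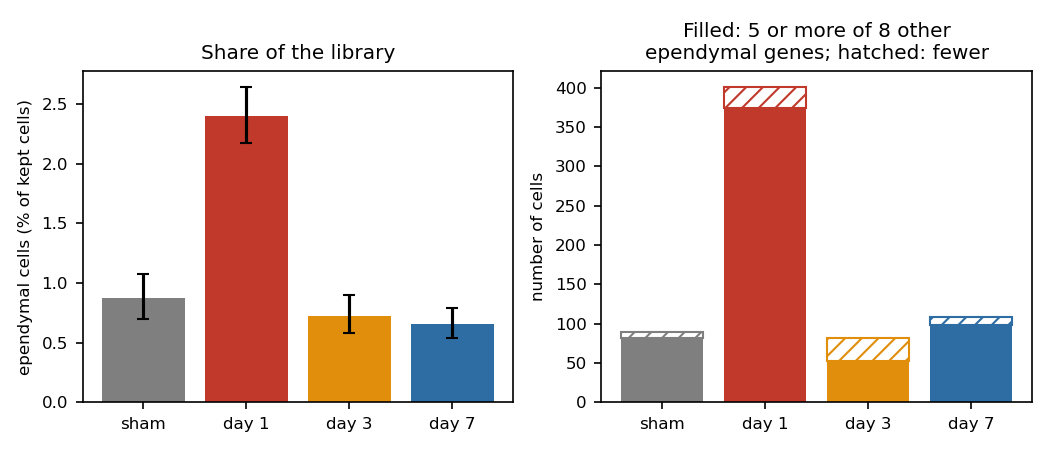
Left, selected ependymal cells as a percentage of kept cells in the sham library and on days 1, 3 and 7, with exact 95% binomial intervals as error bars. Right, their number, split into cells with a UMI of at least 5 of 8 other ependymal genes (filled) and cells with fewer (hatched). Day 1 stood highest with 2.40%, and day 3 had the largest hatched part, 29 of 82 cells.

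The identity of the cells was checked on 8 ependymal genes that the rule did not use, namely Dynlrb2, Tekt1, Rsph1, Pifo, Fam183b, Enkur, Cfap126 and 1110017D15Rik. At least 5 of these 8 were present in 82 of 89 sham cells, 375 of 401 day 1 cells, 53 of 82 day 3 cells and 99 of 109 day 7 cells. The label thus held for most cells, and least on day 3. Of the 29 day 3 cells below 5 of 8, 89.7% held at least 3 endothelial markers, 86.2% at least 3 mural markers, 79.3% at least 3 oligodendrocyte markers and 55.2% at least 3 microglia and macrophage markers. Over all selected cells, 23 sham, 130 day 1, 53 day 3 and 35 day 7 cells held at least 3 markers of another class, while no cell held 3 neutrophil or lymphocyte markers. The other classes counted here and below were endothelial, oligodendrocyte, microglia and macrophage, mural, neutrophil, lymphocyte and fibroblast. Cells were not screened in this way for choroid plexus, astrocyte, neuron or erythrocyte markers. Scrublet, a doublet caller, marked 3, 58, 0 and 14 of the selected cells and 2.94%, 7.94%, 2.70% and 6.67% of all kept cells. Pairs of libraries shared 33 to 88 of their 11744 to 17922 barcodes. Because of the day 3 cells, results were also computed on the 609 cells with 5 of 8 genes, a limit chosen after the data had been seen.

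At the edges of the rule, 620 selected cells held all 4 genes and 61 held 3. Of the 61, 18 had 5 of the 8 other genes, and of the 265 cells just outside with 2 of the 4 genes, 5 had them. On the choroid plexus side, 290 of 307 selected cells with 1 such gene and 58 of 71 cells left out for having 2 held 5 of the 8. The choroid limit left out 4, 65, 54 and 12 cells from the sham, day 1, day 3 and day 7 libraries.

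The 4 genes of the rule are described here without comparison, since their presence chose the cells. Ccdc153, which encodes a coiled-coil protein of ciliated cells (chr9:44240676-44247306, GRCm38), was at 2470 CPM in sham, 1770 on day 1, 1867 on day 3 and 1620 on day 7. Tmem212, a membrane protein gene (chr3:27866066-27896368), was at 2880, 2785, 2242 and 2288 CPM. Rarres2, which encodes the chemoattractant chemerin (chr6:48569696-48572789), was at 4475, 3419, 4187 and 2825 CPM. Foxj1, the master regulator of motile cilia (chr11:116330704-116335399), was at 405.7, 566.9, 572.3 and 708.4 CPM.

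The genes that marked the selected cells besides the rule genes are given as a description. Ranked by the ratio of selected cells over all other kept cells in the library where that ratio was lowest, among genes of at least 100 CPM in every library, the first 10 were Fam183b, Meig1, Riiad1, 1700012B09Rik, Sntn, Gm10714, Ak7, Cdhr4, 1700001C02Rik and 1700024G13Rik. Fam183b, a gene of the axonemal tubules, was at 784 CPM in sham, 796 on day 1, 723 on day 3 and 556 on day 7, beside 1.00, 7.09, 1.80 and 1.61 CPM in all other kept cells. Sntn, whose product sits at the tip of the cilium, was at 539, 505, 386 and 354 CPM. Cdhr4, a cadherin-related gene, was at 354, 391, 377 and 366 CPM, so that its 4 libraries differed little.

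Each day was compared with sham by the ratio of summed levels. A gene was taken as past 2-fold when the log2 ratio, with 10 CPM added to both levels, was at least 1 or at most -1, among genes that reached 100 CPM in sham or on that day, the 9 rule genes left out. On day 1, 29 of 1996 genes were past 2-fold higher (1.45%) and 21 lower (1.05%). On day 3, 71 of 2018 genes were higher (3.52%) and 24 lower (1.19%). On day 7, 43 of 2190 genes were higher (1.96%) and 11 lower (0.502%). Of the 71 genes higher on day 3, 58 were below 0.5 times the level in all other kept cells of that library, or took over 25% of their UMIs from 1 cell. This held for 12 of the 29 genes higher on day 1 and 13 of the 43 on day 7. In the cells with 5 of 8 genes, 27 of the 29 higher and 20 of the 21 lower calls of day 1 were also past 2-fold, as were 43 of 71 and 15 of 24 on day 3, and 40 of 43 and 8 of 11 on day 7. The median log2 ratio over all genes compared was -0.0019, -0.037 and 0.0052 on days 1, 3 and 7.

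Most axonemal genes were below sham on days 1 and 3, none past 2-fold. On day 7 they were spread around the sham level in the summed cells. The differences in their summed level were smaller in cells without 3 markers of another class. Within subgroups 3 and 4 of those cells, described at the end, the day 7 sum was below sham, at 0.947 and 0.892 times. Of 88 such genes, 71 reached 100 CPM for the day 1 comparison, and 58 of them (81.7%) were below sham, beside 50.4% of all 1996 genes. On day 3, 69 of 71 (97.2%) were below sham, beside 53.9% of all genes, and on day 7, 39 of 74 (52.7%) beside 49.5%. A gene that reached 100 CPM on the day but not in sham is above sham by this limit. The median log2 ratios were -0.31, -0.47 and -0.017, and no gene was past 2-fold on day 7 either. Their summed level was 24521 CPM in sham and 21040, 18570 and 23032 CPM on days 1, 3 and 7, which gave ratios of 0.858 (0.846 to 0.870), 0.757 (0.741 to 0.774) and 0.939 (0.922 to 0.957). Among the cells with 5 of 8 genes the ratios were 0.858, 0.843 and 0.925, and 61 of 71 genes were below sham on day 3. Those cells are chosen on 8 genes of which several are axonemal. In the 440 cells without 3 markers of another class the ratios were 0.906 (0.891 to 0.921), 0.913 (0.8898 to 0.937) and 0.956 (0.936 to 0.977), and 54 of 71, 50 of 71 and 36 of 74 genes were below sham. Most of the day 3 difference and part of the day 1 difference were thus absent in these cells. In choroid plexus cells, which hold far less of these transcripts, the summed ratios were 0.850, 0.909 and 0.981.

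The 3 axonemal lists went different ways on day 7. The outer and inner dynein arm list, which holds the motors and the factors that assemble them, summed to 5454 CPM in sham, 4786 on day 1, 4124 on day 3 and 5688 on day 7. The radial spoke and central pair list summed to 6010, 5159, 4385 and 6272 CPM. The list of nexin link, tektin and tubule genes, which hold the doublets together, summed to 13057, 11096, 10062 and 11071 CPM. On day 7 the first 2 lists were thus at 1.04 times sham each (1.00 to 1.08 and 1.01 to 1.08), and the third at 0.848 times (0.826 to 0.870). These are summed cells, and the dynein arm list differed between the subgroups described at the end, with 5130.5 CPM in subgroup 3 and 6276.8 in subgroup 4. Subgroup 4 held 13.6% of the sham and 52.7% of the day 7 cells clustered there. Within subgroups 3 and 4 the axonemal lists together were at 0.947 and 0.892 times sham on day 7. Library and subgroup cannot be told apart in these shares, and the part of the subgroups in the result was not tested. Of the dynein arm genes of at least 100 CPM, 7 of 22 were below sham on day 7, and of the nexin and tubule genes 25 of 34 were, beside 49.5% of all genes. For days 1 and 3, 19 dynein arm genes reached 100 CPM. Genes that reached it on day 7 but not in sham lie above sham by that limit, so these counts are not compared.

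Single axonemal genes had different courses. Dnah12, a large dynein heavy chain gene of the inner arms, was at 354.6 CPM in sham, 341.4 on day 1, 219.4 on day 3 and 548.4 on day 7. Ak7, an adenylate kinase gene of the cilium, was at 630, 499, 429 and 766 CPM, and Cfap54, a central pair gene, at 524, 611, 348 and 735 CPM. Dnah12, Ak7 and Cfap54 were lowest on day 3 and highest on day 7. Dynlrb2, a dynein light chain gene, was at 1148, 1213, 1031 and 894 CPM and Dnali1, a light intermediate chain gene, at 424, 294, 330 and 262 CPM, both lowest on day 7. Rsph1, a radial spoke head gene, was at 1181, 912.3, 956.7 and 802.8 CPM. Meig1, counted in the nexin, tektin and tubule list, was at 1026, 1175, 1023 and 929.5 CPM, also lowest on day 7.

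Intraflagellar transport genes summed to 3855 CPM in sham and 3340, 2899 and 3704 CPM on days 1, 3 and 7, and of those of at least 100 CPM 13 of 15, 14 of 14 and 8 of 16 were below sham, beside 50.4%, 53.9% and 49.5% of all genes. The day 3 ratio was 0.752 (0.712 to 0.794), and 0.811 in the cells with 5 of 8 genes. On that day 53 of the 82 selected cells held at least 3 markers of another class, and their part in the result was not tested. Kifap3, which encodes the adaptor of the kinesin motor that moves cargo outward, was the single gene of this list past 2-fold, lower on day 3, beside 1.19% of all genes. It was at 186.3 CPM in sham, 114.5 on day 1, 78.9 on day 3 and 170.7 on day 7. The list of cilia transcription factors, without Foxj1, summed to 480.9, 470.8, 456.1 and 715.9 CPM, and day 7 was at 1.49 times sham (1.32 to 1.68). The same list was at 1.48 times sham on day 7 in all other kept cells, 1.63 in endothelial cells, 1.34 in astrocytes and 1.35 in choroid plexus cells. Myb, which acts early in multiciliated cell formation, was at 98.2, 116.2, 96.1 and 173.9 CPM. Rfx3, an X-box binding factor, was at 76.1, 80.3, 73.2 and 143.8 CPM. Both were highest on day 7 and near sham before, and neither was past 2-fold.

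**Figure D2:**
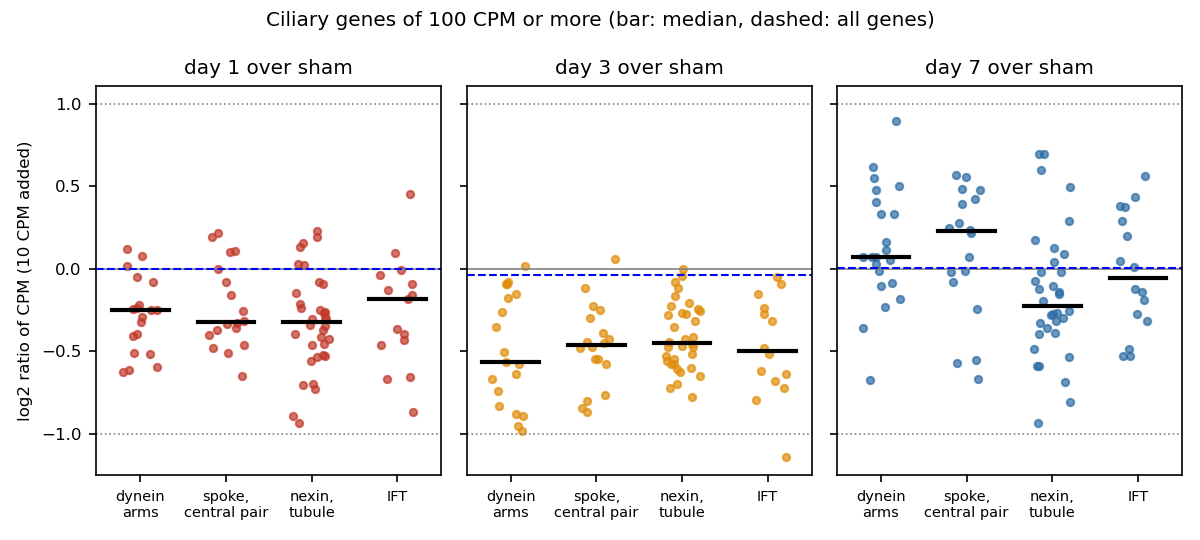
Log2 ratio of CPM over sham (10 CPM added) for genes of at least 100 CPM in the dynein arm, radial spoke and central pair, nexin and tubule, and intraflagellar transport (IFT) lists, with 1 point per gene. Black bars are list medians, the dashed line is the median of all genes compared, and dotted lines mark 2-fold. Nearly all points lie below 0 on day 3, when many selected cells held markers of another class, and the dynein and spoke medians lie above 0 on day 7.

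The glial reactivity list of 24 genes summed to 6009 CPM in sham, 11039 on day 1, 7818 on day 3 and 4741 on day 7. On day 1, 12 of its genes reached 100 CPM, with 3 past 2-fold higher, beside 1.45% of all genes, none lower, beside 1.05%, and a median log2 ratio of 0.73. On day 3, 2 of 13 were higher, namely Gfap and Lcn2, beside 3.52% of all genes, with a median of 0.27. Lcn2 was then higher in endothelial than in ependymal cells, as given below with the mixed cells. On day 7 none of 10 was past 2-fold, with a median of -0.39.

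Gfap, the intermediate filament gene of reactive astrocytes (chr11:102887336-102900912), was at 65.1 CPM in sham (50.3 to 83.0), 516.7 on day 1 (495 to 539), 210.8 on day 3 (178 to 248) and 26.8 on day 7 (17.4 to 39.6). Day 1 was highest, day 3 was between, and no interval overlapped another. The ratios over sham were 7.94 (6.20 to 10.3), 3.24 (2.40 to 4.41) and 0.412 (0.249 to 0.663). Of the day 1 cells 286 of 401 held a Gfap UMI, beside 28 of 89 sham cells. With every cell thinned to 2000 UMIs, which 390 of the 401 and 82 of the 89 cells had, 43.3% and 6.10% held one. In endothelial cells Gfap stood at 13.4 CPM on day 1 and in astrocytes at 316 CPM in sham and 928 on day 1.

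Serpina3n, which encodes a secreted protease inhibitor of acute injury (chr12:104406729-104414329), had 2 UMIs in the sham cells and 687 on day 1. Its level was 2.004 CPM in sham, 169.9 on day 1, 25.8 on day 3 and 2.15 on day 7. The day 1 ratio was 84.8, with a wide interval of 23.4 to 701 that comes from the 2 sham UMIs. Astrocytes went from 16.0 to 409 CPM and endothelial cells from 0.394 to 46.7 CPM over the same days. Serpina3n belongs to a family of similar genes, and how reads shared among such copies were counted affects its level.

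C4b, a complement component gene (chr17:34728380-34743882), stayed high for longer. It was at 26.1 CPM in sham (17.0 to 38.2), 266.3 on day 1 (251 to 283), 222.3 on day 3 (189 to 260) and 33.3 on day 7 (22.6 to 47.2). Days 1 and 3 lay far above sham and day 7, whose intervals overlapped. In the cells with 5 of 8 genes the day 3 level was 239 CPM, beside 26.8 in sham. Astrocytes held 83.8, 174, 240 and 62.4 CPM of C4b, and choroid plexus cells 1.30, 8.09, 6.07 and 0.445 CPM. C4b has a close copy, and the division of reads between the 2 is uncertain.

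S100a6, a calcium-binding protein gene (chr3:90612882-90624181), was at 1414 CPM in sham, 3324 on day 1, 1549 on day 3 and 977.8 on day 7, and was past 2-fold on day 1 alone. S100a4, its neighbour on the chromosome, was at 43.1, 199.8, 27.2 and 22.5 CPM. Vim, which encodes the intermediate filament vimentin, was at 1839, 3290, 2177 and 1444 CPM, and its day 1 ratio of 1.79 (1.70 to 1.88) was under 2-fold. Actb, the cytoplasmic actin gene, was at 2519, 5416, 5949 and 2118 CPM, and its day 3 level was 4538 CPM in the cells with 5 of 8 genes. All 4 genes were above sham on day 1 and below it on day 7 in the summed cells. For S100a6 the day 7 direction differed between subgroups 3 and 4, which are described at the end. S100a4 was at 0.324 times sham (0.0987 to 0.834) in subgroup 3 on day 7, and had 0 sham and 8 day 7 UMIs in subgroup 4. Actb was at 0.993 (0.883 to 1.11) and 1.05 (0.902 to 1.23) times sham in subgroups 3 and 4. Vim was not followed within subgroups.

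**Figure D3:**
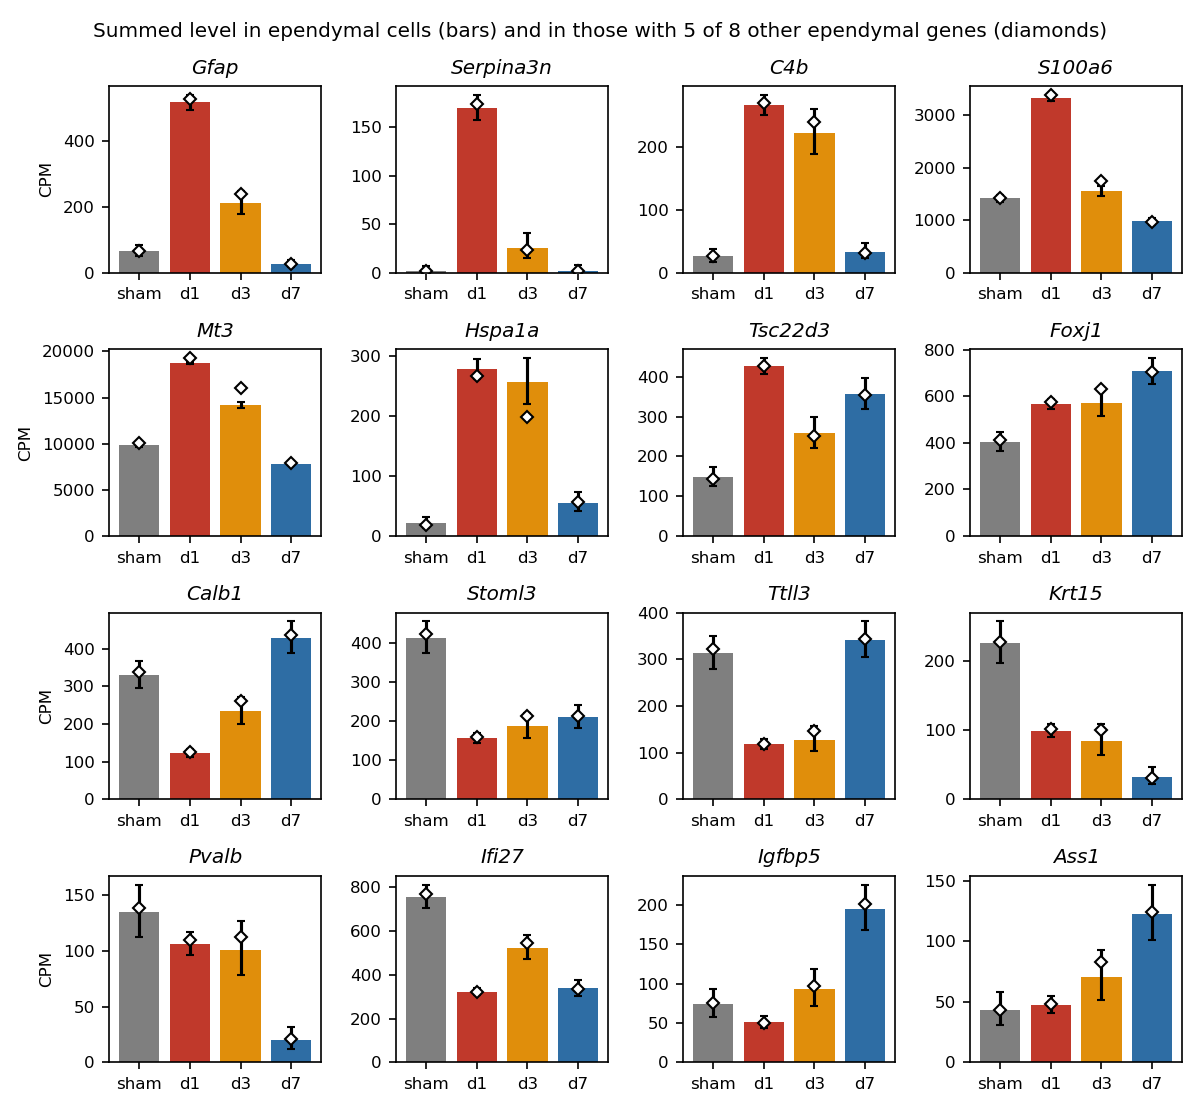
Summed level in CPM of 16 genes in the selected ependymal cells of the sham, day 1 (d1), day 3 (d3) and day 7 (d7) libraries (bars) with exact 95% Poisson intervals, and in the cells with 5 of 8 other ependymal genes (diamonds). Gfap, Serpina3n and S100a6 peak on day 1, Krt15 falls to 32.2 CPM on day 7, and Igfbp5 and Ass1 are highest on day 7.

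The STAT site TTCNNNGAA, which reads the same on both strands, was searched in the same promoter windows for the glial reactivity list. It was found in 4 of the 21 genes with a promoter (19.0%), beside 9.55% of all genes. No match that lay wholly before the start was listed for Gfap or Serpina3n, and matches that reached past the start were not listed by gene.

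Hspa1a and Hspa1b were past 2-fold higher on day 1, whereas Mt1, Mt2 and Mt3 were above sham and Hsp90aa1 and Hsp90ab1 below it by less than 2-fold. Mt3, the metallothionein of the nervous system, was among the most abundant transcripts, with 9891 CPM in sham, 18760 on day 1, 14200 on day 3 and 7816 on day 7. Its day 1 ratio was 1.90 (1.86 to 1.94), under 2-fold. Mt1 was at 8503, 14190, 11970 and 8860 CPM, and Mt2 at 1163, 1684, 1601 and 1418 CPM. The metallothionein and oxidative stress list summed to 25619, 41741, 34129 and 23973 CPM, and 2 of its 14 genes of at least 100 CPM were below sham on day 1, beside 50.4% of all genes, with none past 2-fold.

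Hspa1a, which encodes the inducible chaperone HSP70 (chr17:34969190-34972156), was at 21.0 CPM in sham, 279.1 on day 1, 256.7 on day 3 and 55.8 on day 7. Hspa1b, its near-identical copy beside it (chr17:34956436-34959238), was at 36.1, 378.0, 212.3 and 86.9 CPM. Reads that fit both copies could be split or dropped, so that the pair is best read together. Hspa1a was higher in endothelial cells than in ependymal cells in every library, at 302, 932, 1187 and 387 CPM. Hsp90aa1, the inducible HSP90 gene, was at 6491, 3267, 4507 and 4868 CPM in ependymal cells and Hsp90ab1, the constitutive one, at 3822, 1938, 3011 and 2679 CPM. Both were lowest on day 1. Over the heat shock list, 2 of 14 genes of at least 100 CPM were past 2-fold higher on day 1, beside 1.45% of all genes, and none lower, beside 1.05%, and the summed level went from 15501 to 10526 CPM. Cryab, a small heat shock gene, was at 351.6, 484.6, 619.6 and 117.0 CPM and was past 2-fold lower on day 7.

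Glucocorticoid-responsive genes were led by Tsc22d3, which encodes the anti-inflammatory protein GILZ and lies on chromosome X (chrX:140539528-140600659). It was at 148.3 CPM in sham (125 to 174), 426.2 on day 1 (406 to 447), 258.2 on day 3 (222 to 299) and 356.3 on day 7 (319 to 397). Every day lay above sham without overlap, and days 1 and 7 were past 2-fold. In endothelial cells Tsc22d3 was at 601, 620, 396 and 529 CPM. Sgk1, a kinase gene of the same response, was at 47.1, 114.2, 77.5 and 75.1 CPM in ependymal cells and past 2-fold on day 1. Klf9 was at 200.4, 95.9, 146.3 and 231.8 CPM, with day 1 lowest, so that the list did not move as a whole. Of its genes of at least 100 CPM, 2 of 5, 0 of 4 and 1 of 4 were past 2-fold higher on days 1, 3 and 7, beside 1.45%, 3.52% and 1.96% of all genes.

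Aldoc, the brain form of aldolase in glycolysis, was at 91.2 CPM in sham, 268.5 on day 1, 114.7 on day 3 and 165.3 on day 7. It was the single gene of the glycolysis and hypoxia list past 2-fold on day 1, where 12 genes reached 100 CPM with a median log2 ratio of 0.071, beside 1.45% of all genes past 2-fold higher. No gene of that list was past 2-fold on days 3 or 7 in the summed cells. Within subgroups 3 and 4, described at the end, Aldoc was at 2.56 (1.73 to 3.78) and 3.13 (1.26 to 10.0) times sham on day 7. The ratio in subgroup 4 rests on 5 sham UMIs. Aldoc marks astrocytes, which held 1428 to 3327 CPM of it. Ptn, which encodes the growth factor pleiotrophin, was at 121.2, 359.5, 143.4 and 121.3 CPM in ependymal cells, with 1568, 1064, 742 and 1051 CPM in endothelial cells. Its ependymal level was below the endothelial level in every library.

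**Figure D4:**
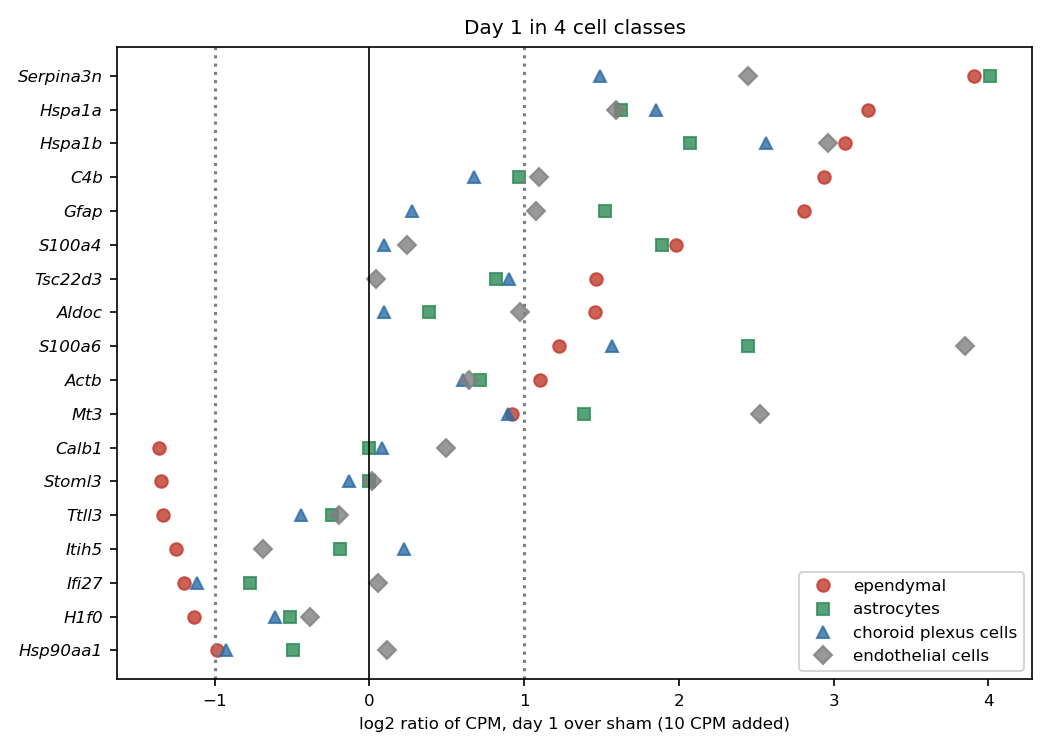
Log2 ratio of day 1 over sham (10 CPM added) for 18 genes in ependymal cells, astrocytes, choroid plexus cells and endothelial cells, without replicate libraries and thus without a test. Serpina3n is near 4 in ependymal cells and astrocytes, and Calb1, Stoml3, Ttll3 and Itih5 are below -1 in ependymal cells. Calb1, Stoml3 and Ttll3 were below 6 CPM in endothelial cells, where the 10 CPM added holds their ratio near 0.

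Calb1, Stoml3 and Ttll3 were among the genes past 2-fold lower on day 1. Calb1, which encodes the calcium buffer calbindin (chr4:15881264-15908064), was at 330.6 CPM in sham (296 to 368), 122.6 on day 1 (112 to 134), 233.8 on day 3 (199 to 273) and 428.2 on day 7 (387 to 472). Calb1 was lowest on day 1 and higher on day 7 than in sham in the summed cells, with no overlap of intervals. Stoml3, a stomatin-like gene of cilia (chr3:53488653-53508502), was at 413.7, 156.5, 186.5 and 210.4 CPM, and was at most 0.508 times sham on every day. Ttll3, which encodes a tubulin glycylase of cilia (chr6:113389260-113414587), was at 312.6, 117.7, 127.7 and 341.3 CPM, low on days 1 and 3 and near sham on day 7. Ttll3 overlaps Arpc4 on the same strand, and reads of the 2 genes may be hard to separate. In endothelial cells Calb1, Stoml3 and Ttll3 were each below 6 CPM in every library.

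BC049715, a gene of unstated function here, was at 113.2, 26.7, 50.2 and 82.6 CPM and was past 2-fold lower on days 1 and 3. The day 1 call held in 13 of the 14 settings described at the end, and the day 3 call in 5. Itih5, which encodes a protein that stabilises hyaluronan, was at 185.3, 72.2, 91.8 and 178.2 CPM, but endothelial cells held 558, 342, 192 and 558 CPM of it. H1f0, the linker histone gene of resting cells, was at 103.2, 41.5, 99.0 and 99.8 CPM. Hist1h4i, a histone H4 gene, was at 185, 74.4, 164 and 110 CPM. The day 1 library was lowest for these 4 genes.

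Some genes that were low on day 1 in ependymal cells were also low then in endothelial cells. Lars2, the mitochondrial leucine-tRNA ligase gene, was at 273.5, 40.8, 90.4 and 194.3 CPM in ependymal cells and at 411, 66.6, 116 and 307 CPM in endothelial cells. Gm42418, an annotated transcript that overlaps AY036118 on the other strand, was at 8236, 840.9, 1727 and 4248 CPM in ependymal cells and at 9296, 1074, 1713 and 4563 CPM in endothelial cells. AY036118 was at 186.3, 74.4, 167.8 and 219.0 CPM, and at 301.7, 189.8, 216.0 and 275.5 CPM in endothelial cells. Malat1, a nuclear long noncoding RNA, was at 23630, 13360, 10200 and 21750 CPM, with 29200, 13060, 13370 and 28160 CPM in endothelial cells. Library and day cannot be told apart here.

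Few interferon-stimulated genes reached 100 CPM in ependymal cells, and of these Ifi27 was past 2-fold lower on days 1 and 7. Isg15, Bst2 and Ifit3 met the limit in sham and not on days 1 and 7, so that they could only count as lower there. Nothing is therefore read from the counts of lower genes and their medians. On day 7 Isg15 and Bst2 were past 2-fold in 8 and 9 of the 14 settings described at the end. On day 1, 4 of the 5 genes of at least 100 CPM were past 2-fold lower, beside 1.05% of all genes, and on day 7 it was 3 of 5, beside 0.502%, with median log2 ratios of -1.15 and -1.14. On day 3, 1 of 6 genes was past 2-fold higher, beside 3.52% of all genes, and none lower. Ifi27, the highest of the lower ones, was at 756.4 CPM in sham, 323.4 on day 1, 523.5 on day 3 and 338.1 on day 7. Isg15, a ubiquitin-like protein gene, was at 123.2, 35.4, 143.4 and 49.4 CPM, Bst2, which encodes tetherin, at 175.3, 73.9, 252.4 and 70.8 CPM, and Ifit3 at 116.2, 46.7, 136.3 and 91.2 CPM. Sham and day 3 were high and days 1 and 7 low for Isg15 and Bst2. Ifitm3, which encodes a membrane restriction factor, went another way with 1484, 2332, 2719 and 884.4 CPM.

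The sham library held high interferon transcripts in other cells too. The list summed to 14312 CPM in sham endothelial cells and to 4094, 8680 and 4901 CPM there on days 1, 3 and 7. In ependymal cells it summed to 3490, 3258, 4661 and 2010 CPM, where Ifitm3 made up much of the sum. Isg15 was at 1885 CPM in sham endothelial cells and 196.5 on day 1. The sum was highest in sham in endothelial cells and on day 3 in ependymal cells.

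Genes higher on day 3 need to be read beside the mixed cells. Hbb-bs, a hemoglobin gene of red blood cells, was at 68.1, 8.65, 1692 and 253.3 CPM, and Lyz2, a myeloid gene, at 0 UMIs in sham, then 34.6, 200.8 and 6.44 CPM. On day 3, Hbb-bs was at 3291 CPM and Lyz2 at 247 CPM in all other kept cells, above the ependymal level. Lcn2, an acute phase gene, was at 459 CPM in day 3 ependymal cells, at 173 CPM in those with 5 of 8 genes and at 2339 CPM in endothelial cells. The MHC class I genes H2-K1 and B2m were at 500.6 and 337.1 CPM on day 3 and at 171.3 and 117.2 CPM in sham, while the 5 of 8 cells held 399 and 197 CPM on day 3. Of the antigen presentation list, 3 of 6 genes were past 2-fold higher on day 3, beside 3.52% of all genes, and none of 4 on days 1 and 7. Marker sums of several other classes were also highest on day 3. In the selected cells the endothelial list stood at 957.7, 1195, 2818 and 1160 CPM, the microglia and macrophage list at 34.1, 365.4, 671.3 and 156.7 CPM, the erythrocyte list at 102.2, 12.6, 2348 and 309.1 CPM, the mural list at 1586, 1541, 1968 and 929.5 CPM, the neutrophil list at 0, 0.247, 65.98 and 1.07 CPM and the choroid plexus list at 1039, 1259, 6406 and 730.9 CPM. The oligodendrocyte list was highest on day 1, at 648.2, 2189, 1304 and 636.5 CPM. Their part in the result was not tested.

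Of the 53 day 3 cells with 5 of 8 genes, 27 still held at least 3 markers of another class, with 41.5% of the 53 holding 3 endothelial and 30.2% holding 3 mural markers. Day 3 levels are therefore also given in the cells without 3 markers of another class, called unmixed here. They numbered 66 in sham and 29 on day 3, and were not screened for the choroid plexus and erythrocyte lists. Hist2h2aa1, a histone H2A gene with a close copy, was at 46.1, 24.7, 123.3 and 28.98 CPM, with 126 CPM on day 3 in the 5 of 8 cells and 120.0 in the unmixed cells, whose sham level was 47.2 CPM. Among the lower genes, Basp1, a membrane protein gene of growing processes, was at 128.2, 75.4, 32.99 and 82.6 CPM and Hopx, which encodes a homeodomain protein of stem and glial cells, at 303.5, 200, 123.3 and 182.5 CPM. Their day 3 levels were 33.9 and 131 CPM in the 5 of 8 cells, and 17.1 and 140 CPM in the unmixed cells beside 139 and 330.4 CPM in sham. Hist2h2aa1, Basp1 and Hopx were past 2-fold in both sets of cells. Within the subgroups described at the end, Hopx was at 0.243 (0.135 to 0.412) times sham on day 3 in subgroup 1. It was at 0.0894 (0.00189 to 0.799) times in subgroup 2 and 0.786 (0.511 to 1.18) times in subgroup 3. Syne1, which encodes the nuclear envelope protein nesprin-1 that ties the nucleus to the cytoskeleton, was at 1024, 603.8, 454.7 and 1870 CPM. In the unmixed cells it was at 1058 CPM in sham and 531 on day 3, under 2-fold by a log2 ratio of -0.98. Syne1 was lowest on day 3 and highest on day 7, where its ratio of 1.83 (1.69 to 1.98) was under 2-fold. Within subgroups 3 and 4, described at the end, its day 7 ratios were 1.86 (1.59 to 2.17) and 1.25 (1.08 to 1.46). Of the other genes named by the rule, Abhd2, Kdm6b and Slc39a1 were past 2-fold higher on day 3, from 41.1 to 205, 42.1 to 145 and 38.1 to 123 CPM, with 83.2, 98.4 and 78.1 CPM in the 5 of 8 cells. In the unmixed cells these 3 genes went from 24.99, 33.3 and 38.9 CPM in sham to 37.1, 74.3 and 54.3 CPM, none past 2-fold. Tprkb and Ccnd2 were lower, from 191 to 78.9 and from 194 to 80.3 CPM, with unmixed levels of 211 and 91.4 CPM for Tprkb and of 167 and 82.8 CPM, under 2-fold, for Ccnd2.

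On day 7 the largest differences were losses of Krt15 and Pvalb. Krt15, a keratin gene (chr11:100131758-100135928), was at 226.4 CPM in sham (198 to 258), 99.4 on day 1 (89.9 to 110), 84.6 on day 3 (64.4 to 109) and 32.2 on day 7 (21.7 to 46.0). Sham was highest, days 1 and 3 overlapped, and day 7 was lowest, at 0.142 times sham (0.0938 to 0.209). Pvalb, which encodes the calcium buffer parvalbumin (chr15:78191114-78206400), was at 134.2, 106.3, 100.4 and 20.4 CPM, so that day 7 stood apart from the other 3 libraries, at 0.152 times sham (0.0887 to 0.247). Endothelial cells held under 1 CPM of Krt15 and of Pvalb in every library. Ndn, an imprinted gene that encodes necdin, was at 206.4, 147.4, 68.9 and 81.6 CPM and was past 2-fold lower on days 3 and 7.

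Genes higher on day 7 were of modest level. Ass1, which encodes argininosuccinate synthase of arginine synthesis, was at 43.1 CPM in sham (31.2 to 58.0), 47.5 on day 1 (41.0 to 54.7), 70.3 on day 3 (52.0 to 92.9) and 122.4 on day 7 (101 to 147). Igfbp5, which encodes a secreted binding protein of insulin-like growth factors, was at 74.1, 50.9, 93.2 and 195.3 CPM. Slc4a4, a sodium bicarbonate cotransporter gene, was at 46.1, 53.4, 28.7 and 123.4 CPM. Day 7 was the highest library for all 3 genes, with ratios of 2.84 (1.98 to 4.13), 2.63 (2 to 3.501) and 2.68 (1.89 to 3.86). Fam107a, which responds to glucocorticoids and stress, was at 47.1, 65.0, 73.2 and 135.2 CPM, with 117 CPM on day 7 in endothelial cells. Pnmal2, Casd1, Tef, Tmpo and Mettl7a1 were also past 2-fold higher, with ratios of 2.63, 2.59, 2.64, 2.68 and 2.47. Znhit1, Ndufa3, Enho, Bod1 and Atp6v0e2 were the next lowest of the named genes and were at 130, 166, 54.7, 81.6 and 69.8 CPM on day 7 beside 256, 325, 111, 159 and 137 CPM in sham, none past 2-fold.

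For the remaining lists, the counts stand beside 1.45%, 3.52% and 1.96% of all genes higher and 1.05%, 1.19% and 0.502% lower on days 1, 3 and 7, and with 1 or 2 genes called in a list nothing is read from them. In the list of surface and secreted proteins, Dbi, which encodes a lipid-binding protein, was at 17200, 19140, 16340 and 11760 CPM and Clu, which encodes the chaperone clusterin, at 3703, 4799, 4522 and 3413 CPM. Dbi was lowest on day 7 and Clu highest on day 1. That list had 1 of 20 genes past 2-fold higher and 1 lower on day 1, the same counts on day 3, and 1 of 21 higher on day 7. In the water, ion and junction list, Aqp4, the water channel of glia, was at 465.8, 426.0, 387.3 and 450.8 CPM and Gja1, which encodes the gap junction protein connexin 43, at 309.6, 463.6, 311.2 and 559.2 CPM. Of that list, 0 of 11, 0 of 13 and 1 of 13 genes were past 2-fold higher and none lower. The progenitor and Notch list had 1 of 9, 1 of 10 and 0 of 6 genes higher, in both cases Gfap, which it shares with the reactivity list. Immediate-early genes had 0 of 15, 1 of 16 (Ier3) and 0 of 15 higher and none lower, and their sum was 7431, 6334, 8603 and 6717 CPM.

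The cell cycle list held 4, 4 and 3 genes of at least 100 CPM, none past 2-fold. Its sum was 827.5, 974.4, 991.1 and 859.7 CPM in ependymal cells and 1486, 2529, 1316 and 1308 CPM in endothelial cells. The complement and iron list had 1 of 6 and 2 of 4 genes higher on days 1 and 3, with C4b in both and Trf, the transferrin gene, in the latter. The NF-kB and cytokine list had 0 of 2, 1 of 3 and 1 of 3 higher, in both cases Cxcl12. The integrated stress response list had 1 gene of at least 100 CPM and the tanycyte list, for ventricular cells with long processes, 1 or 2, none past 2-fold. Tanycyte genes summed to 296.5, 319.7, 347.1 and 377.8 CPM.

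Ependymal cells also differed among themselves. Clustering of all 681 cells gave 7 groups, of which 4 were led by genes of other cell types: 86 cells by endothelial genes such as Cldn5, 21 by mural genes such as Tagln, 24 by myelin genes, and 53 by myeloid and other genes such as Lyz2. Of the last group 36 cells were from day 3, 43.9% of the day 3 cells. The other 3 groups held 121 cells led by Gm42418, Calb1 and Syne1, 216 led by 1500015O10Rik, Wls and Rspo3, and 160 led by S100a6, S100a4 and Acta2. Since several leading genes also differed between days, the sizes of these groups are not compared between libraries.

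To follow the day 1 differences within groups formed on other genes, the 440 cells without 3 markers of another class were clustered again. The 175 genes that were past 2-fold on any day or mitochondrial were left out. These steps were chosen after the data had been seen. Subgroup 1 (154 cells) was led by 1500015O10Rik, Sbpl, Hspb1, Wls and Rbp2. Subgroup 2 (89 cells) was led by Tagln, Acta2 and S100a6, and subgroup 3 (130 cells) by Prss34, Col6a5, Ucma and Cryab, where Prss34 had UMIs in 1 of the 130 cells. Mural markers, which include Tagln and Acta2, summed to 2312 and 1422 CPM in subgroups 2 and 3 and to 179.8 and 186.1 CPM in subgroups 1 and 4. Subgroup 4 (67 cells) was led by Syne1, Atp2a2, Igfbp5 and Zic4. Leading genes were ranked over the cells of all libraries. Genes left out of the clustering, such as Syne1, Igfbp5, S100a6 and Cryab, were ranked too. In sham cells Igfbp5 was lowest in subgroup 4, at 49.4 CPM from 6 UMIs, beside 94.5, 89.5 and 78.2 CPM in subgroups 1 to 3. In day 7 cells of subgroup 4 Igfbp5 was at 268.6 CPM. Syne1 was highest in subgroup 4 in sham cells, at 1703 CPM beside 917, 1208 and 915 CPM. The subgroups are given by number, as their leading genes do not name a type. They held 19, 3, 35 and 9 sham cells, 121, 75, 57 and 18 day 1 cells, 13, 8, 7 and 1 day 3 cells, and 1, 3, 31 and 39 day 7 cells.

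Subgroup 1 held 28.8% of these sham cells, 44.6% on day 1 and 1.35% on day 7, and subgroup 4 held 13.6%, 6.64% and 52.7%. The libraries were clustered together without integration, and only genes past 2-fold or mitochondrial were left out. Smaller differences between libraries could thus enter the subgroups, so that library and subgroup cannot be told apart in these shares. Gfap was higher on day 1 in every subgroup, from 16.7 to 382.3 CPM in subgroup 1, from 134.2 to 440.6 in subgroup 2, from 103.4 to 772.8 in subgroup 3 and from 57.6 to 1058 in subgroup 4. The ratios were 22.9 (7.79 to 112), 3.28 (1.11 to 16.0), 7.47 (5.43 to 10.5) and 18.4 (8.77 to 46.2). The first and the second each rest on 3 sham UMIs.

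C4b and Mt3 were higher on day 1 in the subgroups as well. C4b went from 11.1 to 295.6 CPM in subgroup 1, from 0 UMIs to 234.6 CPM in subgroup 2, from 35.3 to 309.7 CPM in subgroup 3 and from 49.4 to 276.9 CPM in subgroup 4. Mt3 had day 1 ratios of 2.09, 1.72, 2.11 and 2.06 in subgroups 1 to 4. Hsp90aa1 had ratios of 0.528, 0.472, 0.503 and 0.497, and Ifi27 of 0.413, 0.447, 0.478 and 0.520. Differences between the subgroups were not tested. S100a6 was different in level between them: it went from 622.6 to 865.3 CPM in subgroup 1, from 2058 to 6464 in subgroup 2, from 2423 to 6820 in subgroup 3 and from 345.6 to 812.6 in subgroup 4, with ratios of 1.39, 3.14, 2.81 and 2.35. On day 7 S100a6 was at 0.787 times sham (0.695 to 0.89) in subgroup 3 and at 1.66 times (1.19 to 2.36) in subgroup 4.

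Calb1 and Stoml3 were below sham on day 1 in each subgroup, with intervals that passed 1 in some. Calb1 had ratios of 0.599 (0.384 to 0.965), 0.707 (0.313 to 1.98), 0.474 (0.376 to 0.597) and 0.238 (0.131 to 0.417), and Stoml3 of 0.443, 0.593, 0.322 and 0.677, where the intervals of the second and the fourth reached 1.66 and 1.03. Ttll3 had ratios of 0.501, 1.82, 0.294 and 0.460, where the second, from 2 sham UMIs, had an interval of 0.489 to 15.3. On day 1 the summed axonemal lists were at 0.913, 1.04, 0.856 and 0.876 times sham, and on day 3, with 13, 8, 7 and 1 cells, at 0.925, 1.08, 0.860 and 0.981 times. On both days subgroup 2, with 3 sham cells, was not below sham. For day 7 only subgroups 3 and 4 are described, with 35 and 9 sham cells and 31 and 39 day 7 cells. The sham side of subgroup 4 is thin, with 6 UMIs of Igfbp5 and 5 of Ass1. The summed axonemal lists were at 0.947 (0.914 to 0.982) and 0.892 (0.858 to 0.927) times sham in these subgroups, both below sham. There Calb1 was at 1.41 (1.10 to 1.80) and 0.996 (0.709 to 1.42) times sham. Krt15 was at 0.0684 (0.0183 to 0.179) and 0.158 (0.0734 to 0.325) times sham, Igfbp5 at 2.34 (1.40 to 3.94) and 5.44 (2.43 to 15.1), and Ass1 at 3.51 (1.73 to 7.38) and 3.18 (1.29 to 10.2). Pvalb had 59 sham and 0 day 7 UMIs in subgroup 3, with an upper limit of 0.138 for the ratio, and was at 0.419 times sham (0.176 to 1.04) in subgroup 4. Ndn was at 0.214 and 0.607 times sham, with intervals of 0.0946 to 0.424 and 0.363 to 1.04.

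**Figure D5:**
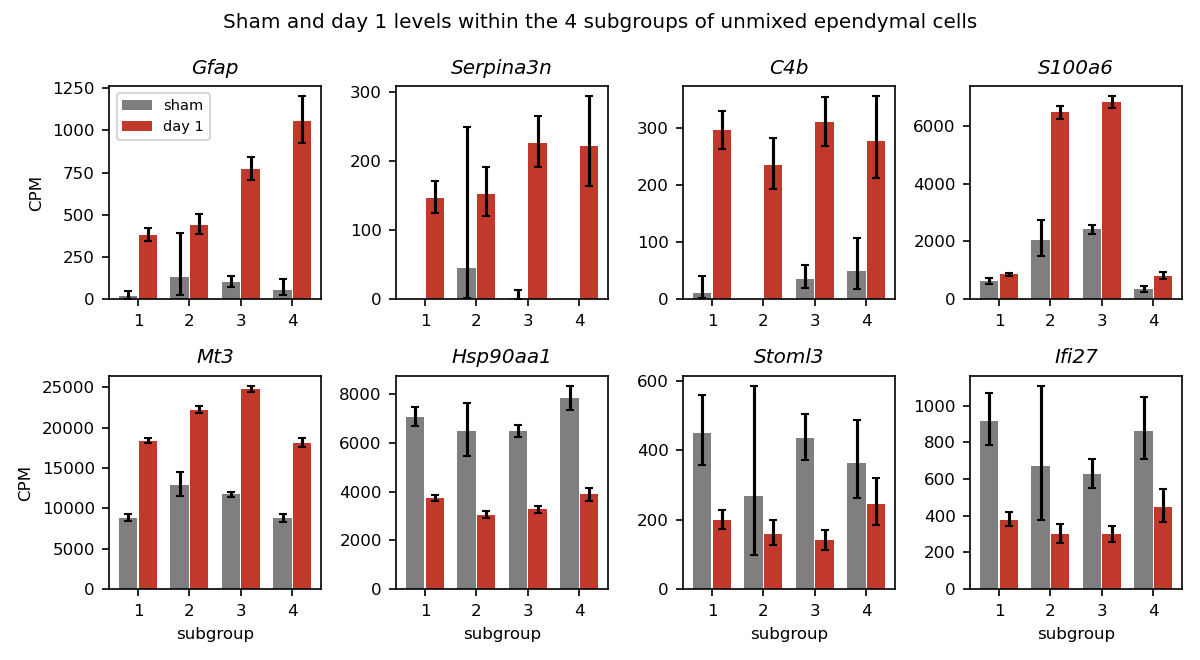
Summed level in CPM in the sham and day 1 libraries within the 4 subgroups of ependymal cells without 3 markers of another class. Exact 95% Poisson intervals are given where at least 1 UMI was counted. Gfap, C4b and Mt3 are higher and Hsp90aa1 and Ifi27 lower on day 1 in each subgroup, while S100a6 differs most in subgroups 2 and 3. Subgroup 2 has 3 sham cells.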

How the data were processed

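Deposited values were raw UMI counts of each gene in each cell, in 4 libraries of 10x Genomics 3' single-cell RNA-seq, which the authors had not normalized. According to the file headers they came from Cell Ranger 4.0.0, while the submitters' processing notes name Cell Ranger 3.0.1, Seurat 4.1.2 and the human build GRCh38. Gene identifiers were mouse Ensembl identifiers, and 31011 of 31053 matched GENCODE vM21 (GRCm38), from which coordinates were taken. Deposited depth was 69392755 to 104023002 UMIs per library, and 697210 to 4044640 UMIs lay in the selected cells, which limits low genes most on day 3.

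The limits on genes (200 to 6000) and mitochondrial UMIs (10%) left 86.8% to 94.3% of the deposited cells. Counts of the selected cells were summed per library and gene and given as CPM. Sums have exact Poisson intervals, ratios exact conditional intervals and shares Clopper-Pearson intervals, all at 95%. No p-value was computed, since each group was 1 library and cells are not replicates. Astrocytes were kept cells with at least 3 of F3, Gjb6, Slc1a2, Aldh1l1, Ntsr2 and Aqp4, choroid plexus cells those with at least 3 of the 5 choroid genes, and endothelial cells those with at least 3 of Cldn5, Ly6c1, Ly6a, Itm2a and Flt1, each with no more than 1 of the 4 ependymal genes, and astrocytes also of the choroid genes. They numbered 593, 1894 and 33142. Named genes were the rule genes, per day the 10 largest differences each way (at least 0.5 times the level in all other kept cells, at most 25% of UMIs from 1 cell, no clone names or mitochondrial genes), list genes past 2-fold, the highest of the cilia and surface lists and the 10 genes most enriched. A gene that this rule names is not reported here. Other genes from the lists (Ifitm3, Vim, Klf9, Hsp90ab1, Mt1, Mt2, Aqp4) and Gm42418 were named after their values were seen, as were the genes followed within subgroups. The selected cells and lists were chosen with earlier results of these data known. Some alternatives were added after the data were seen, namely the 5 of 8 limit and the subgroups.

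Clusters used log-normalized counts, 2000 variable genes, 20 components and Leiden at resolution 0.5. Python 3.11.15, scanpy 1.11.5, leidenalg 0.10.2, numpy 2.4.6, scipy 1.17.1, pandas 2.3.3 and matplotlib 3.10.9 were used. Doublets were called with Scrublet in scanpy and kept, except in the alternative without them. The calculations were tested on simulated counts.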

Additional observations from a re-analysis of the deposited data

How the results depend on the processing

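No paired analysis was possible because each group held 1 library, and leaving out a replicate was not possible for the same reason. Of 81 named calls past 2-fold, 24 stayed past it in each of 14 settings. Of 756 list ratios, 419 stayed within the interval of the reported value and 337 moved. At most 3000 genes per cell left 20 sham cells, so its counts rest on few cells. The cause of a moved value was not tested.

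The share of ependymal cells, 0.873%, 2.40%, 0.726% and 0.659% from sham to day 7, stayed highest on day 1 under each alternative. It was 0.265%, 1.15%, 0.523% and 0.292% with at most 3000 genes per cell, and 1.31%, 2.99%, 1.12% and 1.13% with 2 ependymal genes needed. The share was 0.5003%, 1.30%, 0.381% and 0.381% with no choroid plexus gene allowed. It was 0.648%, 1.62%, 0.257% and 0.447% without cells that held at least 3 markers of another class. Day 1 moved to 2.71% and day 7 to 0.516% with at most 5% mitochondrial UMIs, and to 3.42% and 1.02% with the rule applied at 2000 UMIs per cell. Day 3 moved to 0.558% with all 4 genes needed, to 0.478% with 5 of the 8 other genes in place of the rule, and to 0.469% with them added to it.

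Counts past 2-fold were 29 higher and 21 lower on day 1, 71 and 24 on day 3, and 43 and 11 on day 7. They moved in several settings, each count furthest with at most 3000 genes per cell, which left 20 sham cells. They were 169 and 243, 324 and 465, and 269 and 196 with at most 3000 genes, 51 and 53, 224 and 210, and 149 and 65 with cells thinned to 2000 UMIs, 114 and 64, 276 and 103, and 247 and 56 with no limit on low levels (of 17547, 15936 and 16120 genes in place of 1996, 2018 and 2190), 51 and 38, 121 and 48, and 115 and 24 with a limit of 50 CPM (of 4009, 4081 and 4409 genes), and 19 and 10, 45 and 9, and 10 and 5 with 50 CPM added. With at most 5% mitochondrial UMIs day 1 gave 46 and 33 and day 7 gave 90 and 21. With 2 ependymal genes needed, 67 were lower on day 1, 40 higher on day 3, and 82 and 38 higher and lower on day 7. With no choroid plexus gene allowed, 36 were lower on day 1, 55 lower on day 3, and 66 and 26 higher and lower on day 7. The mean of per-cell CPM gave 173 and 81 on day 3 and 71 and 19 on day 7. The higher genes of day 3 were 44 with all 4 genes needed, and 28 with 5 of 8 genes in place of the rule or added to it. They were 16 without cells that held at least 3 markers of another class. Without Scrublet doublets 17 were lower on day 7.

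Directions of calls changed in 7 cases. With at most 3000 genes, BC049715 on day 3 had a log2 ratio of 0.067 and Krt15 on day 1 of 0.35. Without cells that held at least 3 markers of another class, Hbb-bs had -0.82 on day 3 and -1.80 on day 7. In the same setting Enpp2 had -0.40 on day 3. With 2 ependymal genes needed, Hbb-bs had -0.66 on day 7 and Trf -0.45 on day 3.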
